A study of Mus musculus with 12 samples.

Results

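Aminoacyl-tRNA synthetases were followed at the RNA level in paused mouse embryonic stem cells in which a guide RNA directed an RNA demethylase fusion to Mycn. The 38 genes were every row of the raw count table whose symbol is a one-letter amino acid code followed by "ars", with or without the suffix 2, together with Farsa, Farsb, Eprs and Tarsl2, out of 24421 genes. They comprise 21 genes of the cytosolic enzymes and 17 of the mitochondrial enzymes (suffix 2). All 38 had enough reads to be tested.

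The cells were E14, a mouse embryonic stem cell line, of the genotype WT(dCas_Alkbh5), so all 3 groups carried the fusion of a Cas protein with Alkbh5, a demethylase that takes the m6A mark off RNA. They were kept on gelatin in FBS/LIF, transfected with a guide plasmid, selected for 3 days with 8 µg/mL blasticidin and paused for 5 days with 200 nM INK128, an inhibitor of the kinase mTOR. The 12 libraries fall into 3 groups of 4 replicates, named here NT (control guide with no target), Mycn-gRNA2 and Mycn-gRNA3. Whether replicates were separate cultures is not in the labels, and p-values therefore reflect only how far these 4 samples per group scatter, possibly for technical reasons. Nor do they say whether the line is a single clone.

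Each synthetase joins one amino acid to its matching tRNA, and the ribosome then uses the charged tRNA. Cytosolic and mitochondrial translation mostly use separate enzymes, both encoded in the nucleus; Kars and Gars are known to serve both compartments and are counted here as cytosolic. Several cytosolic enzymes sit in one large multisynthetase complex held together by scaffold proteins, and uncharged tRNA is sensed by the kinase Gcn2 (gene Eif2ak4), which leads to translation of the transcription factor Atf4. Many genes of cytosolic synthetases are known Atf4 targets, and MYC family proteins are known regulators of genes for translation.

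Promoter sequences are shown first, because they carry the letters that Atf4 with a C/EBP partner is known to recognise. RefSeq promoters of assembly GRCm38.p6 (the build mm10), from 250 bases before the annotated start to 50 after, were matched for 28 of the 38 genes, 14 cytosolic and 14 mitochondrial. The motif TGATGNAA, searched on both strands, was in 5 of the 14 cytosolic promoters and 0 of the 14 mitochondrial ones, against 3.97% of all 32851 promoters. The E-box CACGTG, the letters that MYC with MAX is known to recognise, was in 4 cytosolic promoters (Farsb, Iars, Tars and Aars) and 1 mitochondrial promoter (Ears2), against 7.15% of all promoters. For 22 of the 28 promoters, 35 bases soon after the RefSeq start were found in a protein-coding GENCODE vM21 transcript of the gene. Sars and Gars were among the 6 where they were not, so their start may differ between RefSeq and GENCODE. Their RefSeq start was the start of the counted gene. The counted gene of Yars begins before its RefSeq start, at chr4:129189795, so its motif lies farther inside the gene by that start. The 2 motifs did not share letters, and a match describes a sequence and is not a measured binding site. The stretches with TGATGNAA are given on the gene's strand, 5′ to 3′, with the motif or its reverse complement in capitals, and the position of its first capital is counted from the start base as 1.
Aars, position -112, chr8:111033722-111033745, plus strand: cttgagcaTTGCATCAgccgagcc
Aars, position 10, chr8:111033843-111033866, plus strand: gggtcactTTTCATCAgagcgctc
Gars, position -30, chr6:55037963-55037986, plus strand: ctgcgctaTTTCATCAtgcaccgg
Iars, position 8, chr13:49682129-49682152, plus strand: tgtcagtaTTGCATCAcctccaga
Tars, position -15, chr15:11399658-11399681, minus strand: gagtcccgTTGCATCAgctggtta
Yars, position 4, chr4:129189898-129189921, plus strand: agctcagcTGATGCAAcccgacgg

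The promoter of Sars, the gene that differed most in what follows, held neither motif in the same window. Its 120 bases before the start are shown for comparison, all in lower case because no motif was found.
Sars, chr3:108445260-108445379, minus strand: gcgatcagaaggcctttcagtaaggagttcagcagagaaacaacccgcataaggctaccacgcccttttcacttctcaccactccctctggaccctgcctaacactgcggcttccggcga

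The libraries held 17248564 to 33819855 reads on genes. Levels are given as CPM, counts per 1000000 reads after TMM scaling, which are relative to the transcriptome. A second scale gives reads per 1000 reads of ERCC RNAs, synthetic RNAs added to the RNA extracted from 200000 cells per sample; unequal cell numbers or RNA recovery would shift it. Mycn itself was at 141 ± 4.17 CPM (SD, n = 4) in NT, 236 ± 26.7 in Mycn-gRNA2 and 276 ± 16.7 in Mycn-gRNA3, a log2 change of 0.86 with both guides (SE 0.0699, edgeR adjusted p = 3.39e-06). The summed level of 8 pluripotent stem cell markers was 4971 CPM in NT, 3943 in Mycn-gRNA2 and 4167 in Mycn-gRNA3, and that of 8 primitive endoderm markers was 265, 366 and 361. Sums of 8 fibroblast or feeder markers stayed at or under 7.45 CPM in every library, with means of 1.77 CPM in NT, 5.82 and 6.05 with the guides, and those of 4 muscle markers were 3.54, 12.6 and 14.7. Sums of 6 neural markers were 189, 184 and 196 CPM. With both guides against NT relative to the transcriptome (edgeR adjusted p under 0.05), 4 of 8 tested pluripotent markers fell. On the higher side were 6 of 8 primitive endoderm, 4 of 4 fibroblast, 3 of 3 muscle and 5 of 6 neural markers, with 1 neural marker lower. Of all 14497 genes tested, 14.9% rose and 13% fell. The 4 Y-linked genes Kdm5d, Eif2s3y, Ddx3y and Uty had 1 to 4 reads in the NT libraries and 544 to 1927 in the guide libraries. The guide and such a difference between the NT and guide cells cannot be told apart in any comparison with NT, and the part of the markers in the results was not tested.

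The synthetase genes differed widely in level. Per kilobase of exon in NT, the highest cytosolic gene was Kars, the lysyl-tRNA synthetase and a member of the multisynthetase complex, at 148.5, 154, 132 and 138 CPM per kb in replicates 1 to 4. Eprs, which charges both glutamate and proline, followed at 120 ± 3.92 CPM per kb (SD, n = 4) and Gars, the glycyl enzyme, at 105 ± 9.82. Kars did not overlap with Eprs, and the lowest Eprs value, 116 CPM per kb, was just above the highest Gars value, 115.7. The lowest cytosolic gene was Tarsl2, a second threonyl enzyme, at 3.07, 2.89, 2.87 and 2.64 CPM per kb. Kars was at 143, 144, 147 and 139 CPM per kb under Mycn-gRNA2 and 130.5, 143, 156 and 148 under Mycn-gRNA3, overlapping NT in both groups. Tarsl2 was at 2.87, 3.26, 3.14 and 3.07 under Mycn-gRNA2 and 3.33, 3.11, 2.87 and 3.02 under Mycn-gRNA3, again overlapping NT.

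Among the mitochondrial enzymes Lars2 had the most reads, which are taken up at the end. Iars2, the mitochondrial isoleucyl enzyme, came next at 29.7 ± 1.64 CPM per kb in NT, and Rars2, the arginyl enzyme, at 27.0 ± 1.07. Every Iars2 library of NT (at least 28.3) was just above every Rars2 library (at most 27.97). Both were above the cytosolic genes Yars (24.0) and Cars (20.9) on this scale. The lowest was Wars2, the mitochondrial tryptophanyl enzyme, at 2.81, 2.37, 2.33 and 2.45 CPM per kb in NT, 2.67, 2.47, 2.48 and 2.54 under Mycn-gRNA2 and 2.25, 2.12, 2.27 and 2.26 under Mycn-gRNA3. The Wars2 values of Mycn-gRNA3 were below every NT and Mycn-gRNA2 library, by little. Its log2 change with both guides was -0.07 (edgeR adjusted p = 0.538). Summed over the 21 genes, the cytosolic enzymes held 3923 ± 210 CPM in NT, 4029 ± 398 in Mycn-gRNA2 and 4044 ± 180 in Mycn-gRNA3, which overlap. The other 16 mitochondrial genes together held 580.5 ± 26.2, 555 ± 54.2 and 585 ± 8.86 CPM. The ratio of the cytosolic to the mitochondrial sum was 6.76 ± 0.171, 7.26 ± 0.257 and 6.92 ± 0.374.

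**Figure D1:**
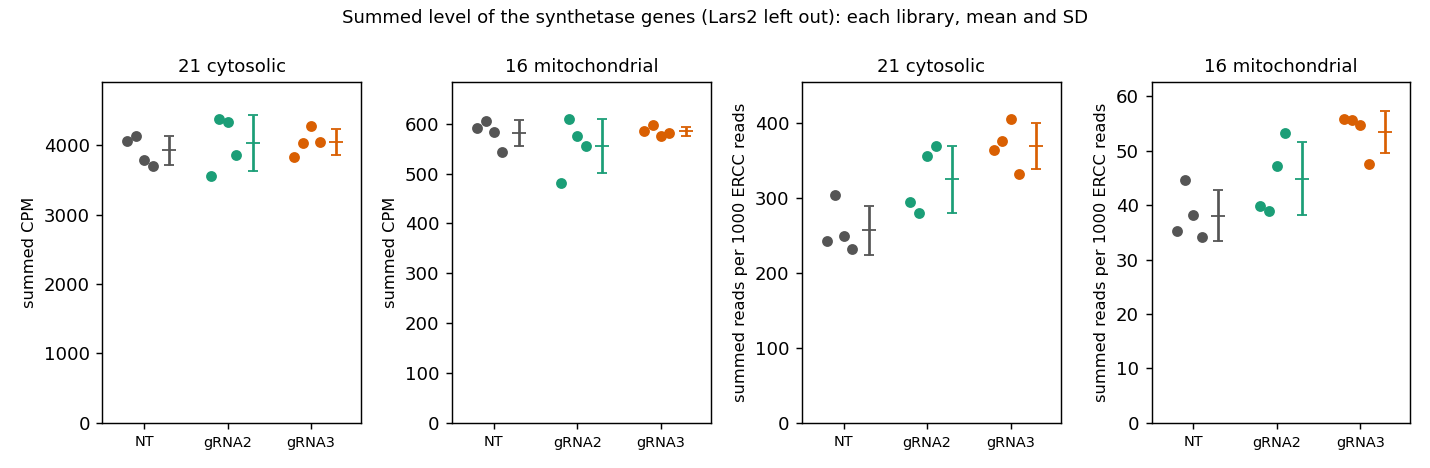
Summed levels of the 21 cytosolic and 16 mitochondrial synthetase genes (Lars2 left out) in each library, as CPM (left pair) and as reads per 1000 ERCC reads (right pair); points are libraries in replicate order, bars mean and SD over 4. The CPM sums of the 3 groups overlap, while per 1000 ERCC reads the cytosolic mean goes from 257 in NT to 325 and 369 with the guides.

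With both guides against NT, few synthetase genes differed from NT relative to the transcriptome. Of the 38, 2 rose (Sars and Yars2), 2 fell (Mars2 and Rars2) and 34 did not pass the test, where 14.9% of the 14497 genes tested rose and 13% fell (edgeR quasi-likelihood test, Benjamini-Hochberg adjusted p under 0.05). The median log2 change was 0.01 over the 38 genes, 0.03 over the cytosolic and -0.02 over the mitochondrial genes, and 0.00 over all genes tested. Leaving out Lars2, each of the 33 genes without a call had a 95% interval inside a 1.5-fold change in either direction. Of the 8 members of the multisynthetase complex, 0 passed the test. Their log2 changes, 3 positive and 5 negative, ran from -0.10 for Dars to 0.10 for Mars, with a median of -0.02. The 13 cytosolic genes outside the complex had 1 call, Sars, and a median of 0.10. By catalytic fold, 0 of 10 cytosolic class I and 1 of 11 class II genes passed the test. At an unadjusted p under 0.05, 8 of the 38 genes passed, where 39.2% of all genes did.

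Sars, the cytosolic seryl-tRNA synthetase (chr3:108424864-108445259, minus strand), was the largest change. Its level was 139.7, 133.5, 109 and 96.8 CPM in NT, 148, 153.5, 172 and 166.5 under Mycn-gRNA2 and 187, 193, 200.3 and 173 under Mycn-gRNA3. All 8 guide libraries were above all 4 NT libraries, and NT replicates 1 and 2 were nearest to them. The log2 change was 0.54 (SE 0.0914, adjusted p = 0.000821), or 1.45-fold. Its mitochondrial counterpart Sars2 gave 0.03 (adjusted p = 0.768). Per kilobase, Sars over Sars2 was 1.94 ± 0.288 in NT, 2.68 ± 0.218 under Mycn-gRNA2 and 2.86 ± 0.0957 under Mycn-gRNA3, and these ratios did not overlap between NT (at most 2.26) and the guides (at least 2.47). None of the 31-base words of the longest annotated transcript of Sars was shared with another gene.

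Yars2, the mitochondrial tyrosyl enzyme (chr16:16302965-16309640, plus strand), was at 29.6, 28.8, 28.3 and 25.9 CPM in NT, 28.6, 33.8, 35.6 and 35.9 under Mycn-gRNA2 and 31.8, 33.7, 35.8 and 34.95 under Mycn-gRNA3. Replicate 1 of Mycn-gRNA2 lay inside the NT range, and the other 7 guide libraries lay above it. The log2 change was 0.26 (SE 0.0717, edgeR adjusted p = 0.0145). Without NT replicate 4 the call was lost (adjusted p = 0.0628). Its cytosolic counterpart Yars had a similar value, 0.28, with a wider error (SE 0.111, adjusted p = 0.0762), so the ratio of the pair stayed at 1.35 ± 0.0303, 1.31 ± 0.166 and 1.42 ± 0.0940 in the 3 groups. Yars overlaps C77080 on the opposite strand over 1.04% of its length.

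Mars2, the mitochondrial methionyl enzyme (chr1:55237177-55240058, plus strand), was at 19.4, 19.9, 21.6 and 19.2 CPM in NT, 13.4, 19.5, 16.6 and 14.99 under Mycn-gRNA2 and 14.2, 14.9, 15.2 and 17.1 under Mycn-gRNA3. Replicate 2 of Mycn-gRNA2 lay inside the NT range and the other 7 guide libraries below it. The log2 change was -0.35 (SE 0.0913, edgeR adjusted p = 0.0114). The 540 better-expressed tested genes of chromosome 1, on which Mars2 lies, had a median of -0.13, and the part of this in the value was not tested. Farsb, Dars, Iars2 and Eprs, also on chromosome 1, were at -0.08, -0.10, -0.05 and -0.05 without a call. The cytosolic enzyme Mars gave 0.10 (adjusted p = 0.601), and Mars over Mars2 per kilobase was 6.05 ± 0.507 in NT, 7.62 ± 1.28 under Mycn-gRNA2 and 8.86 ± 0.698 under Mycn-gRNA3. Mycn-gRNA3 (at least 7.83) did not overlap with NT (at most 6.52), and Mycn-gRNA2 did.

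Rars2, the mitochondrial arginyl enzyme (chr4:34614958-34660167, plus strand), was at 50.4, 51.6, 52.2 and 47.7 CPM in NT, 39.5, 47.1, 45.6 and 41.03 under Mycn-gRNA2 and 43.2, 46.8, 45.8 and 44.4 under Mycn-gRNA3. All 8 guide libraries were below all 4 NT libraries, the nearest by less than 1 CPM. The log2 change was -0.19 (SE 0.0593, edgeR adjusted p = 0.0259). The call was lost when any of NT replicates 1, 2 and 3 or replicate 4 of Mycn-gRNA3 was left out, with an adjusted p of up to 0.0859. The cytosolic enzyme Rars gave -0.03 (adjusted p = 0.711).

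**Figure D2:**
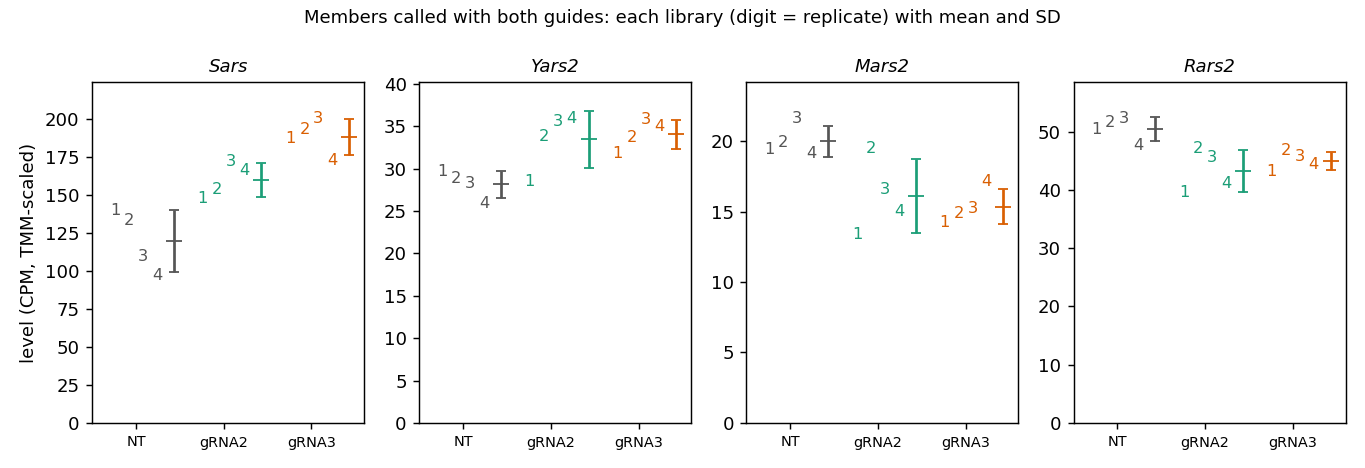
Levels of Sars, Yars2, Mars2 and Rars2 in CPM (axes from 0) in each library, drawn as its replicate number, with the mean and SD of each group beside. Sars is above every NT library in all 8 guide libraries and Rars2 below in all 8; for Mars2 and Rars2 the direction holds for levels relative to the transcriptome only, their log2 changes per ERCC read being 0.03 and 0.20.

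Among the genes without a call, Yars, Hars (0.14, adjusted p = 0.0796), Tars (0.16, adjusted p = 0.0862) and Wars (0.21, adjusted p = 0.108) came closest on the higher side, and Cars2 (-0.21, adjusted p = 0.137) on the lower side, by the same edgeR test. Cars2 lies on chromosome 8, whose better-expressed genes had a median of -0.12, and the part of this in its value was not tested. Measured on the longest annotated protein-coding transcript of each gene, Hars shares 8.42% of its 31-base words with Hars2 and Hars2 5.2% with other genes. Larger shares were found for genes that include Iars2 (36.8%, with Rab3gap2), Aars (22.7%, with Exosc6), Cars2 (19.7%, with Naxd), Iars (17.7%, most with Gm4849) and Farsb (11%, with Sgpp2). Such a transcript can hold bases that were not counted. In the counted exons, Farsb overlapped Sgpp2 over 10.4% of its length and Iars2 overlapped Rab3gap2 over 2.4%. No overlap with another counted gene was found there for Hars, Hars2, Aars, Cars2 or Iars. How far the counts of these 7 genes are affected was not tested. Of the 5 genes whose promoter held TGATGNAA, Yars, Tars and Gars had log2 changes of 0.28, 0.16 and 0.16, and Aars and Iars 0.00 and -0.02. None of the 5 passed the test with all libraries. Without Mycn-gRNA2 replicate 1, a library taken up below, Yars, Tars and Gars were called higher and Aars and Iars were not. In that fit 21.9% of all genes tested were higher.

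**Figure D3:**
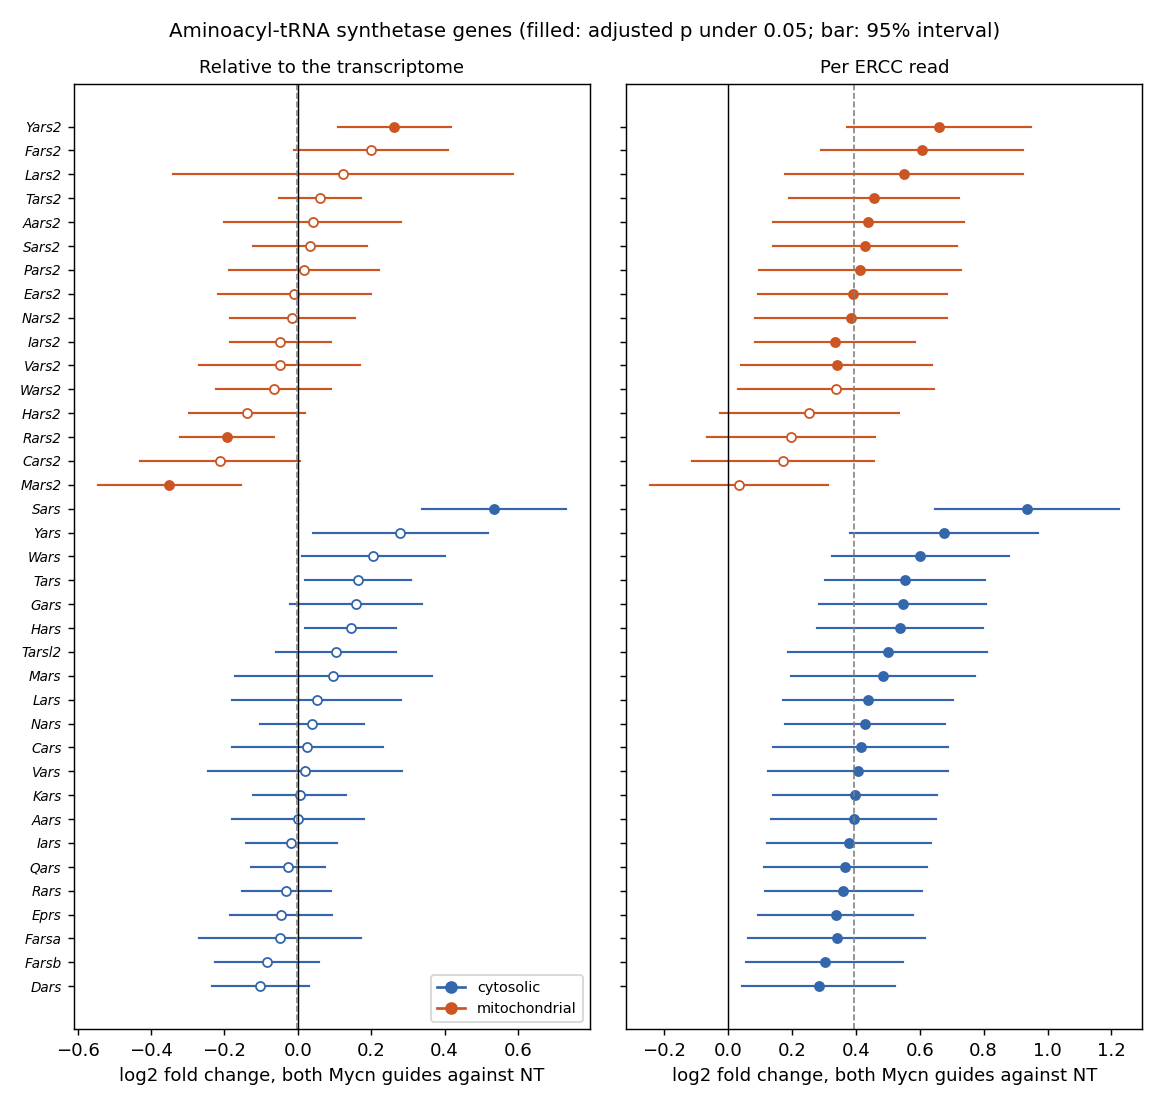
Log2 fold change of 37 synthetase genes with both Mycn guides against NT, with its 95% interval, relative to the transcriptome (left) and per ERCC read (right); filled points passed the edgeR test, and the dashed line is the median of all 14497 genes. Left, 4 of 37 points are filled; right, the genes sit around the all-gene median of 0.39, and Mars2 and Rars2 are no longer below 0.

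Replicate 1 of Mycn-gRNA2 stood apart from the other libraries, in these genes and over all genes tested. Over all genes tested, its counts differed from those of the other replicates of its group by a chi-square per degree of freedom of 44.6, 64.9 and 72.2. Every other pair of replicates gave 8.63 to 29.5, so the difference is not particular to the synthetase genes. Relative to its group's mean, its median log2 deviation over the family without Lars2 was -0.22 (range -0.61 to 0.25), with an SD of 0.205 across genes, against SDs of 0.051 to 0.114 in the other 11 libraries. It had the lowest of the 12 CPM values in 18 of the 38 genes and the highest in 2. Vars, the valyl enzyme, was at 164 CPM there and at 308, 282 and 270.1 in the other replicates of the group. Across 37 genes the deviation had a Pearson correlation of -0.48 with transcript GC content, inside the range of -0.57 to 0.59 seen in the other libraries; this is a description across genes of one library, and its part was not tested. Without this library, 8 genes rose and 2 fell, against 21.9% of the 14631 genes tested higher and 20.2% lower. Added to Sars and Yars2 were the cytosolic genes Yars (0.34, SE 0.0710, edgeR adjusted p = 0.00138), Wars (0.26, adjusted p = 0.00217), Hars (0.17, adjusted p = 0.00998), Tars (0.19, adjusted p = 0.0128), Mars (0.18, adjusted p = 0.0205) and Gars (0.20, adjusted p = 0.0222). Wars, for example, was at 81.7, 80.6, 76.9 and 78.2 CPM in NT, 68.3, 94.3, 99.1 and 93.6 under Mycn-gRNA2 and 83.9, 91.3, 107 and 95.5 under Mycn-gRNA3, so that replicate 1 of Mycn-gRNA2 alone was below NT. The 8 of 38 genes called higher are a share close to that of all genes, and the 2 called lower are a smaller share than the 20.2% of all genes. Of the 8, only Yars2 was one of the 17 mitochondrial genes, and the others were among the 21 cytosolic genes. Both genes that fell, Mars2 and Rars2, were mitochondrial.

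**Figure D4:**
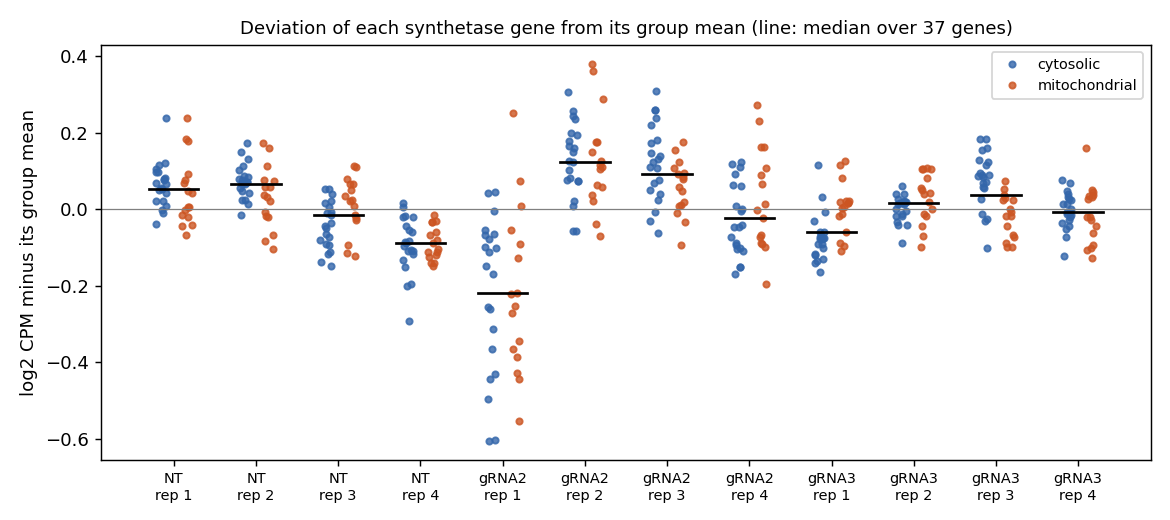
Deviation of log2 CPM from its group's mean for 37 synthetase genes in each of the 12 libraries; black lines are medians. Replicate 1 of Mycn-gRNA2 has a median of -0.22 and the widest spread, from -0.61 to 0.25.

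The pairs of replicates also differed. With replicates 1 and 2 of each group alone, 0 of the 38 genes passed the test, where 1.04% of all genes tested were higher and 0.186% lower; Sars gave 0.32 (edgeR adjusted p = 0.144). With replicates 3 and 4 alone, 9 rose and 3 fell, where 22.7% of genes were higher and 20.9% lower; Sars gave 0.79 (adjusted p = 3.56e-08) and Yars 0.47 (adjusted p = 0.00013).

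Taken one by one, the guides share the NT libraries, so their values are set side by side only. With Mycn-gRNA2, 1 of 38 genes rose and 1 fell, where 10.1% of all genes rose and 7.06% fell: Sars at 0.42 (edgeR adjusted p = 0.0135) and Rars2 at -0.22 (adjusted p = 0.0409). With Mycn-gRNA3, 2 rose and 1 fell, where 14.8% and 12.2% of all genes did: Sars at 0.65 (adjusted p = 0.000589), Yars2 at 0.28 (adjusted p = 0.0226) and Mars2 at -0.38 (adjusted p = 0.0169). The same genes without a call were at 0.25 for Yars2 (adjusted p = 0.0517) and -0.32 for Mars2 (adjusted p = 0.0562) with Mycn-gRNA2, and -0.16 for Rars2 (adjusted p = 0.09) under Mycn-gRNA3. Fitting only the 2 groups, the Mycn-gRNA3 comparison called 8 genes higher and 4 lower, where 22.5% and 19.7% of all genes were called. Without Mycn-gRNA2 replicate 1, Mycn-gRNA2 gave 8 higher and 1 lower (Rars2), where 15.2% and 13% of all genes were called, and Mycn-gRNA3 gave 5 higher and 2 lower, where 21.9% and 19.2% were.

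Between the guides no synthetase gene passed the test on either scale. Relative to the transcriptome, 0% of the 14497 genes were called in either direction, and 5 of the 38 had an unadjusted p under 0.05 by edgeR, where 8.78% of all genes did; DESeq2 also called 0. Sars was 0.24 higher with Mycn-gRNA3 than with Mycn-gRNA2 (95% interval 0.01 to 0.46, adjusted p = 0.549), and the largest of these 5 was Pars2, the mitochondrial prolyl enzyme, at 0.33 (95% interval 0.10 to 0.57, adjusted p = 0.549). Outside Lars2, all intervals stayed inside a 1.5-fold change. Per ERCC read, 0.0069% of all genes were higher under Mycn-gRNA3 and none of them was a synthetase gene; 6 of the 38 had an unadjusted p under 0.05, where 11% of all genes did. Without Mycn-gRNA2 replicate 4, 6 synthetase genes were called higher on that scale, where 13.6% of all genes were.

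Per ERCC read nearly the whole family rose, together with most genes. NT gave 65.5 ± 4.66 reads on genes per ERCC read (SD, n = 4), Mycn-gRNA2 81.9 ± 12.4 and Mycn-gRNA3 90.2 ± 5.13, and the median log2 change over all genes with both guides was 0.39. On this scale 33 of 38 synthetase genes rose and 0 fell, where 56.4% of all genes rose and 0.931% fell; the family's median was 0.40. All 21 cytosolic genes and 12 of 17 mitochondrial genes were called. The 5 without a call were Mars2 (0.03), Cars2 (0.17), Rars2 (0.20), Hars2 (0.25) and Wars2 (0.34, edgeR adjusted p = 0.0533). Sars was at 8.33, 9.83, 7.18 and 6.07 reads per 1000 ERCC reads in NT, 12.3, 9.80, 14.2 and 15.97 under Mycn-gRNA2 and 17.8, 18.01, 19.04 and 14.2 under Mycn-gRNA3. Replicate 2 of Mycn-gRNA2 overlapped NT on this scale, and Sars gave 0.93 (SE 0.142, adjusted p = 3.39e-06). Mars2 was at 1.16, 1.47, 1.42 and 1.202 in NT, 1.11, 1.24, 1.37 and 1.44 under Mycn-gRNA2 and 1.35, 1.38, 1.45 and 1.404 under Mycn-gRNA3, and the groups overlapped. With Mycn-gRNA2, 9 of 38 genes rose and 0 fell, where 26.3% of all genes rose and 0.517% fell; under Mycn-gRNA3, 34 rose and 0 fell, where 60.7% rose and 0.504% fell. Without NT replicate 4 the count with both guides was 17, where 39.9% of all genes rose. Without NT replicate 1 it was 18, where 37.4% rose, and with replicates 1 and 2 alone 0, where 7.6% rose. In these bulk samples, more RNA per cell and a difference in the number of cells extracted cannot be told apart.

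Genes that work with the synthetases were described by lists, with both guides against NT relative to the transcriptome and edgeR adjusted p-values. The shares of all genes to read these counts against are 14.9% higher and 13% lower. Of the 3 scaffold genes of the multisynthetase complex, Aimp1 rose by a log2 of 0.21 (adjusted p = 0.0292), while Aimp2 (-0.02) and Eef1e1 (0.03) did not pass. Aimp1 was at 55.7, 53.0, 58.0 and 48.9 CPM in NT, 54.5, 65.9, 65.0 and 60.2 under Mycn-gRNA2 and 61.0, 67.0, 63.6 and 61.8 under Mycn-gRNA3, so that again only Mycn-gRNA2 replicate 1 overlapped NT. None of the 4 genes for mitochondrial glutaminyl-tRNA amidation and formylation was called. In selenocysteine charging 1 of 6 rose, the elongation factor Eefsec (0.20, adjusted p = 0.0307). In editing and deacylation 1 of 7 rose, the D-tyrosyl-tRNA deacylase Dtd1 (0.45, adjusted p = 0.00203).

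In tRNA maturation and export 8 of 27 rose and 1 fell, where 14.9% and 13% of all genes did, with a median of 0.13. The lowest adjusted p-values belonged to Pop1, a subunit of RNase P, which trims tRNA precursors (0.66, adjusted p = 8.26e-05), Trnt1, which adds the CCA end that synthetases charge (0.29, adjusted p = 0.0056), and Pop7, another RNase P subunit (0.67, adjusted p = 0.00659). Pop1 was at 53.3, 58.9, 57.5 and 51.5 CPM in NT, 72.5, 88.8, 99.0 and 88.6 under Mycn-gRNA2 and 77.7, 88.1, 95.8 and 86.6 under Mycn-gRNA3, all 8 guide libraries above NT. The tRNA methyltransferase Trmt1 fell (-0.22, adjusted p = 0.0301). In tRNA delivery to the ribosome 2 of 6 rose, Eef1d (0.34, adjusted p = 0.0159) and Eef1b2 (0.27, adjusted p = 0.0201), exchange factors for the carrier Eef1a. For tRNA gene transcription 3 of 20 rose, among them the RNA polymerase III subunit Polr3g (0.32, adjusted p = 0.0103), and 2 fell, Brf1 (-0.24, adjusted p = 0.0248) and Polr3b (-0.15, adjusted p = 0.0303), counts near the shares of all genes.

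The amino acid response list held 10 of 33 tested genes that rose and 0 that fell, where 14.9% and 13% of all genes did, with a median of 0.33. The lowest adjusted p-values were those of Stc2, a secreted glycoprotein (1.27, edgeR adjusted p = 6.17e-05), Slc1a4, a transporter of neutral amino acids (1.07, adjusted p = 0.000308), and Nupr1, a stress-induced regulator that was low in NT, at 0.406, 0.359, 0.0791 and 0.0440 CPM (2.58, adjusted p = 0.00052). The enzymes of serine synthesis Phgdh, Psat1 and Psph, which supply the amino acid that Sars charges, rose by a log2 of 0.93, 0.97 and 0.86, with adjusted p-values of 0.00413, 0.00096 and 0.00246; they were named beyond the list's first 3 after their values were seen. Of the 33 log2 changes, 25 were positive and 8 negative. Among the genes without a call by the same edgeR test, Atf4 itself gave -0.04 (adjusted p = 0.821). The asparagine synthetase Asns gave -0.07 (adjusted p = 0.415) and Ddit3 -0.27 (adjusted p = 0.252). These genes, too, were named beyond the list's first 3. Ddit3 overlaps Mars on the opposite strand. Of 7 genes for sensing uncharged tRNA and phosphorylating eIF2, Impact, an inhibitor of Gcn2 signalling, fell (-0.46, adjusted p = 0.0072) and the others did not pass. Impact was at 173, 182, 174.6 and 172 CPM in NT, 174, 133, 114 and 121 under Mycn-gRNA2 and 146, 116, 95.5 and 122 under Mycn-gRNA3, with Mycn-gRNA2 replicate 1 inside the NT range. Without that library, 21.9% of all genes rose and 20.2% fell. In that fit 17 amino acid response genes, 5 tRNA delivery genes and 12 tRNA maturation genes rose, and 2 tRNA maturation genes fell. Counts of the other lists in that fit are not given here.

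Lars2, the mitochondrial leucyl enzyme (chr9:123366940-123462664, plus strand), stood outside the range of the family. It took 0.512% to 1.29% of all reads, against 0.393% to 0.495% for the other 37 genes together, and 2216 ± 911 CPM per kb in NT. Its level was 13182, 5008, 6856 and 9360 CPM in NT, 13197, 10616, 7377 and 9161 under Mycn-gRNA2 and 9041, 7269, 8600 and 9932 under Mycn-gRNA3, and the groups overlapped. It varied with Rn45s, the precursor of ribosomal RNA, which took 7.00% to 12.5% of reads from these polyA-selected libraries. Over the 12 libraries Pearson's r was 0.935 and Spearman's rho 0.979 (permutation test, two-sided, p = 1e-05 for each, the smallest that 100000 permutations can give; this was the only relation of this kind computed, so no adjustment applies). Without the 2 libraries farthest from the median in Rn45s, r was 0.885 (permutation p = 0.0003). Within NT, Mycn-gRNA2 and Mycn-gRNA3, r was 0.994, 0.904 and 0.935 over 4 libraries each, too few for a test. The reads counted on Lars2 are therefore uncertain as a measure of its mRNA, and what these reads come from was not tested. Its log2 change with both guides was 0.12 (SE 0.215, edgeR adjusted p = 0.702).

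**Figure D5:**
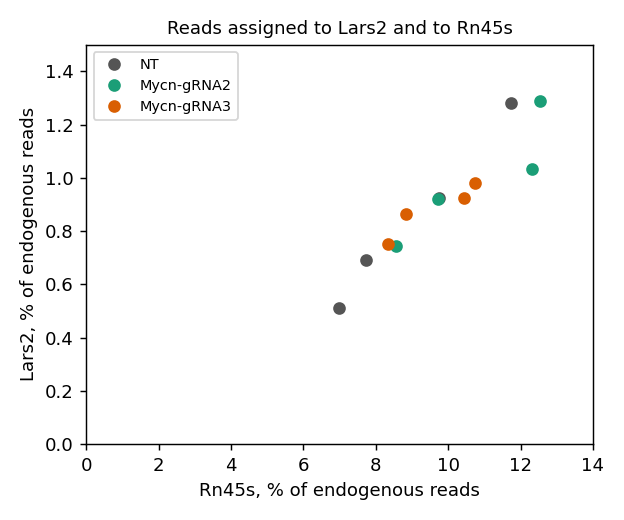
Percent of reads on genes assigned to Lars2 (y axis) against percent assigned to Rn45s (x axis), 1 point per library, coloured by group. Lars2 goes from 0.512% to 1.29% as Rn45s goes from 7.00% to 12.5%, and libraries of the 3 groups intermix.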

How the data were processed

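RNA of 12 libraries was measured by polyA RNA-seq. The authors deposited raw counts per gene. The submitters' processing notes name Trim Galore 0.4.0, featureCounts in Subread 1.5.0, edgeR 3.32.1 and the build mm10. Not given in the sources used here are the aligner, annotation release and strand setting. Opposite-strand overlaps cannot be separated. The deposited log2 values of 12042 genes equal log2(count + 0.5) minus a constant per library, checked against the counts, and served in an alternative only.

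Groups and replicate numbers come from the sample titles. The main test was edgeR 4.0.16 in R 4.3.3 (robust quasi-likelihood, all 12 libraries, filterByExpr, 14497 genes), scaled by TMM or by totals of 92 ERCC RNAs. DESeq2 1.42.0, limma 3.58.1, other filters, scalings, subsets of libraries and a replicate block were alternatives. Full values are given for genes called with both guides or between the guides and for the highest and lowest per length. From each related list up to 3 called genes with the lowest adjusted p are named. Members and lists were chosen with earlier results of these data known. On data simulated for both guides against NT (14497 genes), the test found 28% of genes changed 1.25-fold and 92% of those changed 1.5-fold. There, 50 well-counted genes were changed per fold size and 14297 genes were left unchanged. Far more genes were called in the real data than were changed there, so these shares need not hold for the real comparison. Replicates differed by more than sampling noise, so none was taken for a copy. Same-numbered libraries of the guides had deviations correlated at r of 0.173 to 0.644 over 9401 genes. For replicates 1, 2 and 3 the same number gave the highest r, but replicate 4 gave 0.173 against 0.476 with another number. A block by number on the guide groups alone still called 0 synthetase genes between the guides on either scale. Of all genes it called 0% relative to the transcriptome and 0.0139% per ERCC read. The values of 1 synthetase gene are not reported here singly; it is counted in the family totals.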

Additional observations from a re-analysis of the deposited data

Results flagged for a closer look

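Among 123 sets of 4 libraries (the CPM of each synthetase gene, the 2 summed levels and their ratio, in each group), 8 had a library whose gap to the nearest other was above Dixon's critical share of the group's range; chance alone flags about 1 in 20. Of the 8, 4 were in Mycn-gRNA2 replicate 1, all in mitochondrial enzymes. There, Vars2 was at 24.1 CPM with the other replicates at 35.3 to 37, Aars2 at 27.5 with the others at 44.8 to 47.4, and Ears2 at 19.8 with the others at 28.7 to 29.8. Fars2 went the other way, at 14.9 with the others at 11.7 to 11.9. Some cytosolic genes lay as far off in that library without a flag. Log2 deviations from the group's mean were -0.61 for Mars and -0.60 for Vars, against -0.55 for Aars2. The remaining 4 flags were spread over 3 libraries. Lars was at 172 CPM in NT replicate 4 (others 205 to 210) and Wars2 at 9.29 in Mycn-gRNA3 replicate 2 (others 9.88 to 9.95). In Mycn-gRNA3 replicate 3, Cars was at 75.7 (others 64.4 to 66.3) and Aars at 333 (others 283 to 291).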

How the results depend on the processing

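With both guides, no called log2 change of a synthetase gene reversed within a scale; between the scales, the lower calls Mars2 (-0.35) and Rars2 (-0.19) gave 0.03 and 0.20 per ERCC read, neither called. Relative to the transcriptome, leaving out each library in turn gave 1 to 8 genes higher and 1 to 3 lower with both guides. Of all genes, 11.1% to 21.9% were then higher and 8.76% to 20.2% lower. The counts were 1 to 8 and 0 to 3 with Mycn-gRNA2 (7.03% to 15.2% and 4.03% to 13% of all genes). With Mycn-gRNA3 they were 1 to 5 and 0 to 2 (10.8% to 21.9% and 7.45% to 19.2%). Per ERCC read the higher counts ran from 17 to 35, from 1 to 26 and from 27 to 37, and from 0 to 6 between the guides. The shares of all genes ran from 37.4% to 69.2%, 12.4% to 53.6%, 46.2% to 67.5% and 0% to 13.6%. Replicates 1 and 2 alone gave 0 calls relative to the transcriptome in every comparison with NT, where 0.221% to 1.38% of all genes were higher. Per ERCC read they gave 0 with both guides, 0 with Mycn-gRNA2, 3 with Mycn-gRNA3 and 1 between the guides. The shares of all genes higher were 7.6%, 2.79%, 19.2% and 3.57%. Replicates 3 and 4 alone gave 9 higher and 3 lower with both guides (22.7% and 20.9% of all genes), 7 and 2 with Mycn-gRNA2 (17.7% and 15.3%), and 9 and 1 with Mycn-gRNA3 (21.4% and 19.2%); per ERCC read Mycn-gRNA2 then gave 34 higher (55.2%). For Mycn-gRNA2 relative to the transcriptome, DESeq2 called 2 higher and 2 lower (11.2% and 8.35% of all genes). DESeq2 size factors in edgeR called 2 higher (10.2%), no filter on low counts 0 lower (4.34%), and a fit of only the 2 groups 0 lower (4.08%). A fit of only the 2 groups called 8 higher and 4 lower with Mycn-gRNA3 (22.5% and 19.7%). The cause of these differences was not tested, beyond the smaller number of libraries in some fits.

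Replicate numbers paired the guide libraries with NT only in part: same-numbered deviations correlated at -0.081 to 0.362 for Mycn-gRNA2 and 0.061 to 0.293 for Mycn-gRNA3. The same number gave the highest r for NT replicates 2 and 3 with Mycn-gRNA2 and 2 and 4 with Mycn-gRNA3. For the other NT replicates another number gave a higher r. With the replicate block, both guides gave the same 4 genes relative to the transcriptome, where 16% of all genes were higher and 14.7% lower. Per ERCC read the block gave 27 genes (51% of all genes higher). Mycn-gRNA2 gave 2 lower relative to the transcriptome (8.37%).

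Over single genes with both guides relative to the transcriptome, 443 of 456 values with a library left out kept their side of the threshold, 5 lost a call and 8 gained one; per ERCC read 388 of 456 kept it and 65 lost a call. Tarsl2, Wars2 and Fars2 had the lowest NT levels in CPM. The standard errors of Tarsl2 (0.0759) and Wars2 (0.0729) were below the median over the 37 genes (0.0792).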
